A study of Mus musculus with 6 samples.

Results

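Matricellular proteins are secreted into the extracellular matrix, where they signal to cells more than they bear load, and fibronectin is the adhesive glycoprotein on which much of the provisional matrix is built. The genes described here are Fn1 (fibronectin), Tnc (tenascin C), Sparc (SPARC, or osteonectin), Postn (periostin), Thbs1 and Thbs2 (thrombospondins), Ccn1 and Ccn2 (the CCN proteins once called CYR61 and CTGF) and Spp1 (osteopontin). They were chosen by name, by matching Ensembl identifiers to symbols. All 9 members were found among the 55416 genes of the deposited count table, and all 9 passed the filter on low counts that left 17083 genes for testing. In injured liver, stellate cells that have turned into myofibroblasts make many of these proteins. Hepatocytes are the main source of the soluble fibronectin of plasma, bile duct cells and scar-associated macrophages make osteopontin, and CCN genes answer to TGF-beta and to YAP with TEAD. Many of the proteins bind integrins on the cell surface, and thrombospondin 1 can activate latent TGF-beta.

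RNA came from whole liver of male mice, in 3 libraries called KO and 3 called WT. Ephb2, the gene of a receptor for ephrin-B ligands, was floxed in every animal. KO animals also carried Pdgfrb-CreERT2, a recombinase that tamoxifen switches on in cells with an active Pdgfrb promoter, such as stellate cells and other mesenchymal cells. WT animals had the floxed gene and no Cre. Animals of both genotypes were given tamoxifen for 5 days at 8 to 10 weeks of age and then 8 weeks of a choline-deficient, amino-acid-defined diet. Fat supplied 45% of the calories, methionine was at 0.1% and cholesterol at 1%. Mice fed this way develop steatosis, inflammation and fibrosis of the liver. Cre came together with floxed Ephb2 in every KO animal and no group had another diet, so Cre and deletion cannot be told apart. According to the series title, the study was about fibrosis, and its 1 comparison asks how losing Ephb2 in Pdgfrb-expressing cells alters liver RNA. In RNA from whole liver, fewer cells of a type and less RNA per cell cannot be told apart.

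Total counts ran from 21160690 to 26339251 in the KO libraries and from 21411113 to 23100862 in the WT libraries. Ephb2 itself, the targeted gene, stood at 6.01, 8.87 and 6.95 CPM (counts scaled to library size with TMM factors) in KO replicates 1 to 3, against 9.46, 8.28 and 12.4 CPM in WT replicates 1 to 3. The genotypes overlapped, and edgeR's quasi-likelihood test gave a log2 fold change of -0.46 (SE 0.21, adjusted p = 0.850). Hepatocyte markers held 42407 to 57471 summed CPM in KO and 50595 to 55761 in WT libraries and none of the 8 was at 0. The labels do not say whether replicates are separate animals, so the p-values rest on the spread among these libraries. That spread went beyond sampling noise (chi-square per degree of freedom at least 13.2 between libraries of a genotype), and its source was not tested. Libraries also differed in acute phase RNA, which hepatocytes make in response to inflammatory cytokines. The 10 acute phase genes summed to 7860, 23090 and 6989 CPM in KO replicates 1 to 3, against 15262, 6799 and 18668 CPM in WT replicates 1 to 3.

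None of the 9 members passed edgeR's test between the genotypes after Benjamini-Hochberg adjustment over all genes (smallest adjusted p = 0.850). Of the 9, 7 lay higher and 2 lay lower in KO liver, beside 49.0% of all genes tested with a log2 fold change above 0. The median log2 fold change was 0.11 over the 9 members and -0.0048 over all genes tested. The share of all genes called was 0.0% at an adjusted p under 0.05 and 5.19% at an unadjusted p under 0.05. Of the members, only Postn had an unadjusted p under 0.05 in edgeR's test, in the direction lower in KO, which 2.1% of all genes tested shared. That p was over 0.05 without WT replicate 2 (0.0631) and without KO replicate 3 (0.0543), and under 0.05 in the other 15 of 17 alternatives. Under other settings Spp1 was under 0.05 in 5 of the 17 and Thbs2 in 1, both in the direction higher in KO. The CPM of the genotypes overlapped for each of the 9, whereas 11.1% of all genes tested had no overlap.

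**Figure D1:**
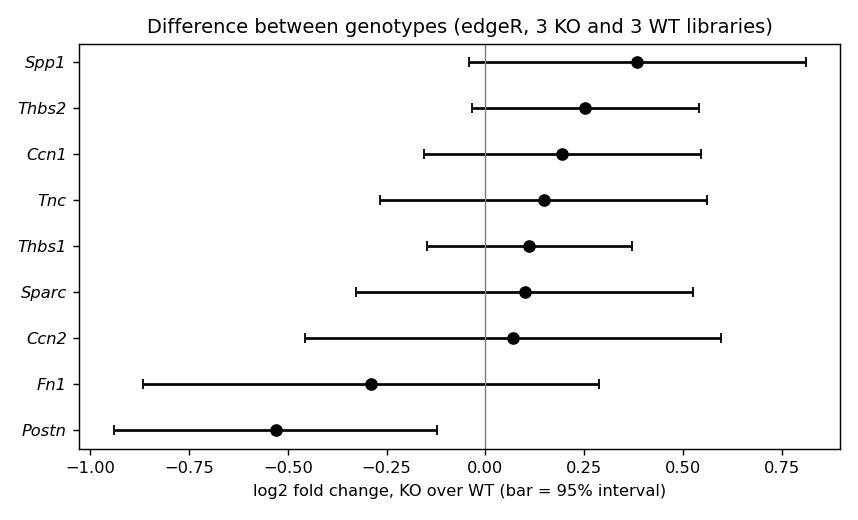
Log2 fold change of each gene, KO over WT (x axis), with its 95% interval from edgeR's quasi-likelihood fit over 3 KO and 3 WT libraries. The interval lies below 0 for Postn (-0.94 to -0.12) and spans 0 for the other genes.

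The promoters of a few members are shown so that the sequence at their start can be read beside the values that follow. RefSeq sequences on GRCm38.p6 were at hand for 6 of the 9 members, in 9 windows that run from 250 bases before to 50 bases after a transcription start. Windows of Fn1, Thbs1 and Ccn2 were not at hand, so these genes were not searched. Postn is shown because it differed most between the genotypes. Thbs2 is an example from the other side of 0, where Spp1 lay further out. Ccn1 is shown because it alone of the 6 held the TEAD motif. Capitals mark the letters TATAAA, a core promoter element chosen after the sequences were seen, and the TEAD core GGAATG, on either strand.
Postn chr3:54360857-54361156 (+): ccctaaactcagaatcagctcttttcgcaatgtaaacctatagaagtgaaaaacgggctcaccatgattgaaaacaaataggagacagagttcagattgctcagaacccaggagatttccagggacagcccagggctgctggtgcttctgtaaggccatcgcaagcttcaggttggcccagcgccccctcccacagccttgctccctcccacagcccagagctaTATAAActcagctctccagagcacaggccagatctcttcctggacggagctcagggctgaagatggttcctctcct
Thbs2 chr17:14694213-14694512 (-): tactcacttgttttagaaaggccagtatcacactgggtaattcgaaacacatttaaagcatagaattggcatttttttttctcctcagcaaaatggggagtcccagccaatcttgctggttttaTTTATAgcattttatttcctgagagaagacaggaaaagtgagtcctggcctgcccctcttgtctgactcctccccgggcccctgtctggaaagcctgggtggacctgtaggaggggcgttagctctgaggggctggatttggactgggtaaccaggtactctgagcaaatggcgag
Ccn1 chr3:145649936-145650235 (-): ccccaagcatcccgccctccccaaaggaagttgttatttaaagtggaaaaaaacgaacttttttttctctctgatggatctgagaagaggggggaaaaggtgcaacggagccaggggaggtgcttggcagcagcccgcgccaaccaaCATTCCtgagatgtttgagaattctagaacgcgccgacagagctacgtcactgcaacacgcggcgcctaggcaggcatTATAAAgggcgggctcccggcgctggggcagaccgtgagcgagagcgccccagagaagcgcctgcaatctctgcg
The TEAD core of Ccn1 begins 103 bases before the start, on the reverse strand, and 14.7% of the 32851 mouse promoter windows in the table held this core. The letters TATAAA begin 26 bases before the start in Postn and 25 before it in Ccn1, on the strand of the gene. In Thbs2 they begin 126 bases before the start, on the reverse strand, and 13.6% of windows held these letters. Neither TGANTCA (AP-1, in 7.81% of windows) nor GTCTAGAC (a SMAD palindrome, in 0.213%) was found in any of the 9 windows of the members. These matches describe letters in short windows and were not compared with any measurement of binding.

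Set side by side per kilobase of exon, Spp1 was the most abundant of the 9 and Postn or Tnc the least. Spp1 averaged 594 ± 110 CPM per kb in KO and 456 ± 72.9 in WT liver (SD, n = 3 each). Fn1 averaged 246 ± 50.9 CPM per kb in KO and 301 ± 81.0 in WT liver (SD, n = 3 each). Sparc followed with 99.4 ± 12.8 CPM per kb in KO and 92.9 ± 21.4 in WT liver (SD, n = 3 each), and then came Ccn2 with 25.3 ± 2.27 in KO and 24.1 ± 8.19 in WT. Spp1, Fn1, Sparc and Ccn2 kept this order without overlap in either genotype. Thbs1 (9.66 to 11.8 CPM per kb in KO, 9.06 to 11.1 in WT) and Ccn1 (10.1 to 10.4 in KO, 6.92 to 10.5 in WT) overlapped each other. Thbs2 ranged over 6.95 to 8.25 CPM per kb in KO and 5.63 to 7.25 in WT, so it overlapped Ccn1 in WT liver. At the low end, Tnc ranged over 4.19 to 4.46 CPM per kb in KO and 2.79 to 4.85 in WT. Postn ranged over 2.55 to 2.85 in KO and 2.78 to 4.58 in WT, so Tnc and Postn were apart in KO libraries and overlapped in WT libraries.

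**Figure D2:**
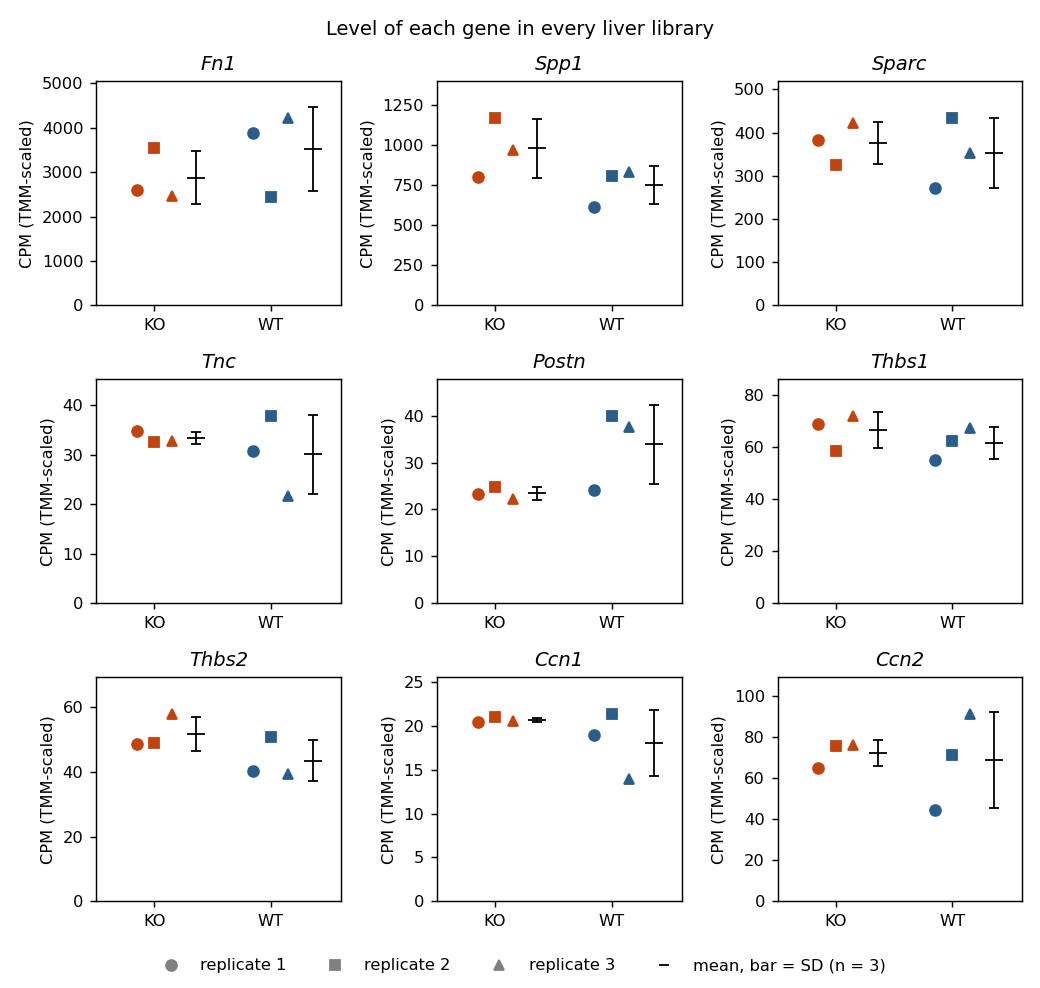
CPM (TMM-scaled, linear axis from 0) of each gene in the 3 KO and 3 WT libraries, 1 symbol per replicate, with the mean and SD in black. Postn lies at 22.2 to 24.8 CPM in the KO libraries and at 24.2 to 39.8 CPM in the WT libraries, and each panel shows overlap between the genotypes.

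Fn1 encodes fibronectin, to which cells bind mainly through integrin alpha5 beta1, and lies on chromosome 1 of GRCm38 (71585520 to 71653200, minus strand). It stood at 2609, 3554 and 2457 CPM in KO replicates 1 to 3, against 3894, 2436 and 4212 CPM in WT replicates 1 to 3. KO replicate 2 and WT replicates 1 and 3 were high, and the other 3 libraries lay within 2436 to 2609 CPM. The log2 fold change was -0.29 (95% interval -0.87 to 0.29, edgeR adjusted p = 0.858). The 3 libraries with high Fn1 are those with high acute phase RNA in the sums given above. Acute phase genes averaged 7.16, 10.1 and 7.35 log2 CPM in KO replicates 1 to 3, against 9.11, 7.20 and 9.39 in WT replicates 1 to 3. With this mean as a covariate the log2 fold change of Fn1 was -0.18 (SE 0.15, edgeR adjusted p = 0.840), against -0.29 (SE 0.25) without it. Without WT replicate 2, the WT library with little acute phase RNA, it was -0.50, and without WT replicate 3 it was -0.14. Counts per gene do not separate plasma fibronectin from the cellular forms with extra domain A or B.

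**Figure D3:**
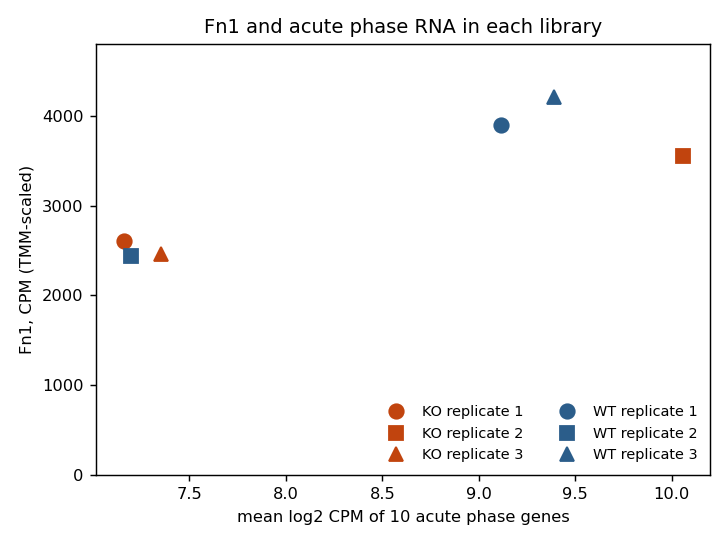
Fn1 in CPM (y axis, from 0) against the mean log2 CPM of 10 acute phase genes (x axis), 1 point per liver library. The 3 libraries at 9.11 to 10.1 on the x axis hold 3554 to 4212 CPM of Fn1, and the 3 at 7.16 to 7.35 hold 2436 to 2609 CPM.

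Postn encodes periostin, which binds collagen I, fibronectin and tenascin C and promotes collagen cross-linking, and lies on chromosome 3 (54361109 to 54391037, plus strand). Its level was 23.3, 24.8 and 22.2 CPM in KO replicates 1 to 3, against 24.2, 39.8 and 37.5 CPM in WT replicates 1 to 3. WT replicate 1 lay among the KO libraries and the other two WT libraries lay above all of them. The averages were 23.4 ± 1.31 CPM in KO and 33.8 ± 8.42 CPM in WT liver (SD, n = 3 each), a log2 fold change of -0.53 (95% interval -0.94 to -0.12). edgeR's quasi-likelihood test gave an unadjusted p of 0.0171 and an adjusted p of 0.850, and 253 genes had a smaller p. The log2 fold change was -0.73 without WT replicate 1 and -0.40 without WT replicate 2. Stellate cell markers summed to 845 to 946 CPM in KO and 893 to 1083 CPM in WT libraries, with 2 of 10 markers above 0 on the log2 fold change scale. Myofibroblast markers summed to 2027 to 2819 CPM in KO and 1706 to 2719 CPM in WT libraries, with 5 of the 9 tested above 0. Portal fibroblast and mesothelial markers summed to 134 to 184 CPM in KO and 82.8 to 183 CPM in WT libraries, with 7 of the 8 tested above 0 and a median log2 fold change of 0.44. The summed CPM of each of the 3 lists overlapped between the genotypes. Among single markers, Lhx2 was lower in KO without overlap and Pdgfra and Gpm6a were higher, beside 11.1% of all genes tested without overlap. None of the markers was at 0 in all libraries, and the part of the 3 lists in the Postn values was not tested.

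Relative to collagen I within each library, Postn separated the genotypes. The log2 ratio of Postn to Col1a1, the main chain of type I collagen, was -5.08, -4.65 and -5.40 in KO replicates 1 to 3, against -4.50, -4.38 and -4.04 in WT replicates 1 to 3. The difference in mean log2 ratio was -0.74, and the nearest libraries, KO replicate 2 and WT replicate 1, were close together. Of all genes above 0 in every library, 2.92% also had a ratio to Col1a1 that was lower in KO without overlap. The log2 ratio to Pdgfrb, the stellate cell gene whose promoter drives Cre, was -1.54, -1.46 and -1.93 in KO replicates 1 to 3, against -1.19, -1.26 and -0.40 in WT replicates 1 to 3. Here 0.791% of genes were lower in KO without overlap. The difference in mean log2 ratio to Pdgfrb was -0.69, and it was -0.42 without WT replicate 3. Pdgfrb was 1 of the 2 stellate cell markers with a log2 fold change above 0 (0.14), so the ratio was also taken to each of the 10 markers, after seeing the data. The difference in mean log2 ratio was below 0 for all 10 markers, from -0.69 for Pdgfrb to -0.085 for Lrat, the retinol-esterifying enzyme of stellate cells. The genotypes overlapped for 6 of the 10 markers, among them Lrat and Reln (-0.17), and were apart for 4. Among the 10, the share of all genes lower in KO without overlap was taken for Pdgfrb alone. It was not taken for the other markers, their sum or their mean, so whether 4 of 10 is unusual was not tested. Against the summed CPM of the 10 markers the genotypes were narrowly apart (-5.31 to -5.25 in KO and -5.20 to -4.77 in WT libraries), and against their mean log2 CPM they overlapped (-0.84 to -0.61 in KO and -0.68 to -0.22 in WT libraries). For the other 8 members neither the ratio to Col1a1 nor that to Pdgfrb separated the genotypes. Col1a1 stood at 782 ± 159 CPM in KO and 665 ± 148 CPM in WT liver, and Pdgfrb at 73.5 ± 9.56 CPM in KO and 66.8 ± 24.9 CPM in WT liver (SD, n = 3 each). Since the members were chosen with these genotypes in view, the ratios are given as a description, without a test.

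**Figure D4:**
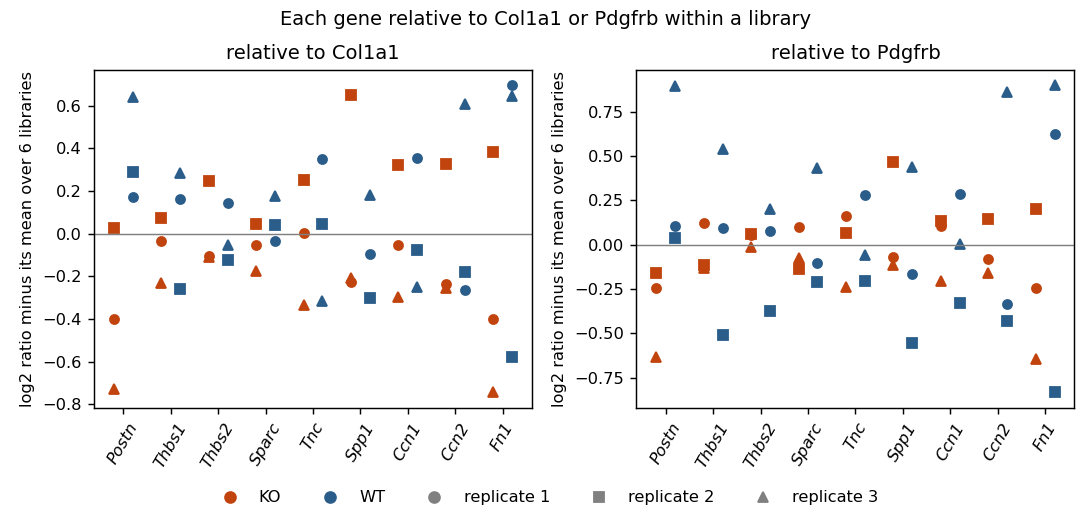
Log2 ratio of each gene to Col1a1 (left) and to Pdgfrb (right) in each library, minus that gene's mean over the 6 libraries, with KO left of WT for each gene. The KO and WT points are apart for Postn in both panels, with a difference in mean log2 ratio of -0.74 and -0.69, and overlap for the other 8 genes.

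Tnc encodes tenascin C, a large glycoprotein of wounds and remodelling tissue that signals through integrins and Toll-like receptor 4, on chromosome 4 (63959785 to 64047015, minus strand). It was at 34.7, 32.5 and 32.7 CPM in KO replicates 1 to 3, against 30.7, 37.7 and 21.7 CPM in WT replicates 1 to 3. The KO libraries lay inside the range of the WT libraries. Its log2 fold change was 0.15 (95% interval -0.27 to 0.56, edgeR adjusted p = 0.881), and -0.041 without WT replicate 3.

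Sparc encodes a calcium- and collagen-binding protein that takes part in collagen fibril assembly, on chromosome 11 (55394500 to 55423183, minus strand). Its level was 384, 325 and 421 CPM in KO replicates 1 to 3, against 271, 433 and 352 CPM in WT replicates 1 to 3. WT replicate 1 was lowest and WT replicate 2 highest, the same 2 libraries of that genotype that were lowest and highest for Col1a1. Col1a1 stood at 786, 622 and 939 CPM in KO replicates 1 to 3, against 549, 831 and 615 CPM in WT replicates 1 to 3. The log2 fold change of Sparc was 0.10 (95% interval -0.33 to 0.52, edgeR adjusted p = 0.918), and -0.065 without WT replicate 1. The log2 ratio of Sparc to Col1a1 stayed within -1.16 to -0.93 in KO and -1.02 to -0.81 in WT libraries, although Col1a1 itself spanned 622 to 939 CPM in KO and 549 to 831 CPM in WT libraries.

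Neither thrombospondin gene passed the test between the genotypes. Thbs1, whose product binds CD36 and CD47 and activates latent TGF-beta, lies on chromosome 2 (118111876 to 118127133, plus strand). It was at 69.0, 58.7 and 71.8 CPM in KO replicates 1 to 3, against 55.0, 62.3 and 67.3 CPM in WT replicates 1 to 3. The ranges overlapped for most of their length, and the log2 fold change was 0.11 (95% interval -0.15 to 0.37, edgeR adjusted p = 0.872). With a highest level 1.31 times the lowest over the 6 libraries, it varied least of the 9. Thrombospondin 1 is also stored in platelets, whose 6 markers summed to 6.91 to 10.1 CPM in KO and 6.85 to 13.8 CPM in WT libraries. None of the 4 platelet markers tested lay above 0 on the log2 fold change scale. None of the 6 was at 0 in all libraries, but Gp1bb was above 0 in KO replicate 2 alone (0.11 CPM). Gp9 was highest in WT replicate 3, at 0.57 CPM. The part of the platelet markers in the Thbs1 values was not tested.

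Thbs2, an inhibitor of angiogenesis that also shapes collagen fibrils in mice, lies on chromosome 17 (14665500 to 14694235, minus strand). Its level was 48.7, 49.0 and 57.8 CPM in KO replicates 1 to 3, against 40.3, 50.7 and 39.4 CPM in WT replicates 1 to 3. WT replicate 2 alone lay among the KO libraries. The log2 fold change was 0.25 (95% interval -0.035 to 0.54, edgeR unadjusted p = 0.0771, adjusted p = 0.850). Leaving out WT replicate 2 gave 0.38, and leaving out KO replicate 3 gave 0.17. The log2 ratio of Thbs1 to Thbs2 was 0.50, 0.26 and 0.31 in KO replicates 1 to 3, against 0.45, 0.30 and 0.77 in WT replicates 1 to 3, so it overlapped too.

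Ccn1 and Ccn2 are early targets of TGF-beta, of serum and of YAP with TEAD, and their products bind integrins and growth factors. Ccn1, on chromosome 3 (145646976 to 145649981, minus strand), was at 20.5, 21.0 and 20.6 CPM in KO replicates 1 to 3, against 18.9, 21.3 and 14.0 CPM in WT replicates 1 to 3. The KO libraries were nearly level, inside the WT range, and the log2 fold change was 0.19 (95% interval -0.16 to 0.55, edgeR adjusted p = 0.858). Without WT replicate 3 it was 0.039. The spread between KO libraries, a coefficient of variation of 1.25%, was below the 4.49% that counting error alone gives at this depth, so it shows nothing beyond counting error.

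Ccn2, on chromosome 10 (24595442 to 24598683, plus strand), was at 64.8, 75.7 and 76.3 CPM in KO replicates 1 to 3, against 44.3, 71.3 and 91.0 CPM in WT replicates 1 to 3. WT libraries held both the lowest and the highest level, and KO libraries lay between them. Its log2 fold change was 0.069 (95% interval -0.46 to 0.60, edgeR adjusted p = 0.956), and -0.17 without WT replicate 1. WT replicate 3 had the highest Ccn2 and the lowest Ccn1 of all 6 libraries. The log2 ratio of Ccn1 to Ccn2 was -1.66, -1.85 and -1.89 in KO replicates 1 to 3, against -1.23, -1.74 and -2.70 in WT replicates 1 to 3.

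Spp1 encodes osteopontin, a secreted ligand of CD44 and of integrins that bind the sequence RGD, and lies on chromosome 5 (104435118 to 104441050, plus strand). Of the 9 members it lay highest in KO relative to WT liver. It was at 803, 1166 and 970 CPM in KO replicates 1 to 3, against 613, 805 and 834 CPM in WT replicates 1 to 3. KO replicate 1 lay among the WT libraries and the other two KO libraries lay above all of them. The averages were 980 ± 182 CPM in KO and 751 ± 120 CPM in WT liver (SD, n = 3 each), a log2 fold change of 0.38 (95% interval -0.043 to 0.81, edgeR unadjusted p = 0.0717, adjusted p = 0.850). Leaving out WT replicate 1 gave 0.25, and leaving out KO replicate 2 gave 0.24. Bile duct cells make osteopontin, and 8 of their 9 markers lay above 0 on the log2 fold change scale. These markers summed to 458 to 581 CPM in KO and 308 to 440 CPM in WT libraries, without overlap. Lipid-associated macrophages make it as well, and their 8 markers, 6 of them above 0, summed to 1803 to 2316 CPM in KO and 1785 to 2104 CPM in WT libraries. None of these markers was at 0 in all libraries, and their part in the Spp1 values was not tested.

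Related genes were taken from 6 lists, and no gene of any list passed edgeR's test in either direction after adjustment over all genes. In 49.0% of all genes tested the log2 fold change was above 0, with a median of -0.0048. Of 22 other matricellular genes 14 were tested, of which 10 lay higher and 4 lower in KO liver, with a median log2 fold change of 0.29. Those with the smallest p were Mfge8 and Smoc2. Mfge8, whose product bridges dying cells to integrins on phagocytes, was at 153, 162 and 160 CPM in KO replicates 1 to 3, against 120, 136 and 126 CPM in WT replicates 1 to 3. The genotypes did not overlap, as in 6.21% of all genes tested in that direction, and the log2 fold change was 0.32 (SE 0.089, edgeR adjusted p = 0.850). Smoc2, a calcium-binding relative of SPARC, was at 54.0, 77.1 and 77.3 CPM in KO replicates 1 to 3, against 48.0, 53.6 and 48.3 CPM in WT replicates 1 to 3. Its genotypes did not overlap either, although KO replicate 1 was next to WT replicate 2, and the log2 fold change was 0.48 (SE 0.14, edgeR adjusted p = 0.850).

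**Figure D5:**
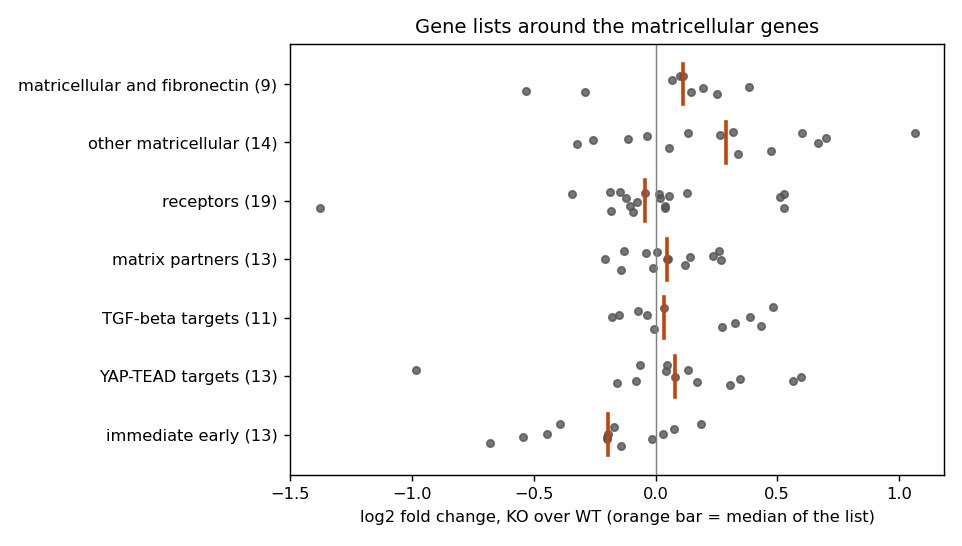
Log2 fold change, KO over WT (x axis), of each tested gene of 7 lists, with the number of genes in brackets and the median as an orange bar; points are spread vertically for legibility. The medians run from -0.20 for immediate early genes to 0.29 for the other matricellular genes, and no point passed the test.

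Receptors of these proteins split evenly, with 9 of 19 higher and 10 lower in KO liver and a median log2 fold change of -0.042. Itgb8 and Itgb6, whose products pair with integrin alphav and activate latent TGF-beta, had the smallest p. Itgb8 averaged 32.8 ± 4.96 CPM in KO and 23.0 ± 5.26 CPM in WT liver, and Itgb6 11.5 ± 1.15 CPM in KO and 7.97 ± 2.20 CPM in WT liver (SD, n = 3 each). Their log2 fold changes were 0.51 (SE 0.18) and 0.53 (SE 0.20), both with an edgeR adjusted p of 0.850, and both genes overlapped between the genotypes. Epithelial cells such as those of bile ducts make integrin beta6. The bile duct markers were higher in KO libraries in the sums given for Spp1, and their part in these values was not tested.

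Of 13 matrix partners, mainly collagens and enzymes that act on them, 8 lay higher and 5 lower, with a median log2 fold change of 0.046. Bmp1, the proteinase that trims procollagen and to which periostin binds, had the smallest p (log2 fold change -0.21, SE 0.14, edgeR adjusted p = 0.850), followed by Col1a2 (0.27, SE 0.19). Of 11 TGF-beta ligands and targets 6 lay higher and 5 lower, with a median of 0.037. Tgfb3, a ligand, was at 20.9 ± 1.74 CPM in KO and 15.9 ± 2.05 CPM in WT liver, and Pmepa1, a feedback target, at 32.5 ± 2.03 CPM in KO and 25.9 ± 3.52 CPM in WT liver (SD, n = 3 each). For both genes the genotypes did not overlap, as in 6.21% of all genes tested in the direction higher in KO. Neither passed edgeR's test (adjusted p = 0.850).

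Of 13 targets of YAP with TEAD other than the CCN genes 9 lay higher and 4 lower, with a median log2 fold change of 0.079. The smallest p belonged to Nt5e, which encodes the ectonucleotidase CD73, at 12.8, 18.2 and 11.3 CPM in KO replicates 1 to 3, against 30.0, 17.5 and 36.3 CPM in WT replicates 1 to 3. KO replicate 2 and WT replicate 2 made the genotypes overlap, and the log2 fold change of -0.98 (SE 0.28) did not pass edgeR's test (adjusted p = 0.850). Ankrd1, a nuclear cofactor and a common readout of YAP, averaged 11.2 ± 2.28 CPM in KO and 7.57 ± 1.70 CPM in WT liver (SD, n = 3 each), with overlap. Of 13 immediate early genes, the class to which Ccn1 belongs in stimulated cells, 3 lay higher and 10 lower, with a median of -0.20. Fosl2, an AP-1 subunit, averaged 72.6 ± 3.68 CPM in KO and 98.9 ± 29.7 CPM in WT liver, and Egr1, a zinc finger factor, 62.5 ± 2.73 CPM in KO and 54.9 ± 3.92 CPM in WT liver (SD, n = 3 each). The genotypes overlapped for Fosl2 and not for Egr1, beside 6.21% of all genes tested that were higher in KO without overlap. Neither passed edgeR's test (adjusted p = 0.850).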

How the data were processed

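The deposited table holds raw counts of reads, as whole numbers that the authors did not normalize, for each Ensembl gene and library. Per the labels' protocols, libraries were made from polyadenylated RNA with a directional kit and sequenced on a NovaSeq. Per the submitters' processing notes, the tools were STAR 2.7.6a, featureCounts 1.6.3 and DESeq2 1.30.0, with GRCm38 and mm10 as builds, and their roles are unstated. For annotation release and strand setting, the sources used here give nothing. Without that setting, it is unknown how reads shared with antisense genes were counted. Antisense genes overlapping a member held at most 20 counts in a library, and Gm42793, on the same strand as Spp1, at most 130. These counts do not show how many reads a member lost to the overlap.

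Symbols, coordinates and exon lengths came from GENCODE M21 (GRCm38), which named 52083 of the 55416 identifiers (94.0%). Counts were tested with edgeR 4.0.16 in R 4.3.3 (glmQLFit, glmQLFTest, TMM factors, filterByExpr with a minimum count of 10, genotype as the sole term), and p-values were adjusted by Benjamini-Hochberg over 17083 genes with a threshold of 0.05. In counts simulated from the means, spread and library sizes of these samples, edgeR found 66.9% of 2-fold and 16.6% of 1.5-fold changes in 5 runs of 17083 genes with 200 changed. Over the 5 runs it also called 66 unchanged genes, beside 55 genes changed 1.5-fold, 218 changed 2-fold and 324 changed 4-fold. Alternatives, including DESeq2 1.42.0 and limma 3.58.1, are in the closing section.

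The members and lists were chosen with earlier results of these data known. Besides the members, the text names the 2 genes with the smallest p of each list and the 3 genes with the most similar profile. No 2 libraries of a genotype agreed within sampling noise (chi-square per degree of freedom at least 13.2). Deviations of same-numbered KO and WT libraries correlated at -0.026, -0.44 and -0.31, so no pairing by number was seen. The highest correlations were 0.37 (KO replicate 2 with WT replicate 3) and 0.36 (KO replicate 3 with WT replicate 2). In each case the libraries were alike in acute phase RNA, so a weaker pairing could be missed. Protein sequences were not used here.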

Additional observations from a re-analysis of the deposited data

How the results depend on the processing

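edgeR called 0 of 17083 genes between the genotypes (886 at an unadjusted p under 0.05), limma-voom 0 (881), DESeq2 7 and edgeR without a filter on low counts 3. Leaving out 1 library gave 0 to 2 calls, and the 2 came without WT replicate 3. No member passed under any of the 17 alternatives, which were 3 other scalings, 2 other filters, DESeq2, limma-voom, a robust fit, the replicate number as a block, an acute phase covariate, each library left out and the 20 most abundant genes left out. Direction held under all 17 for Postn, Thbs1, Thbs2, Spp1, Ccn1 and Fn1. It reversed for Sparc without WT replicate 1 (log2 fold change -0.065 to 0.27 over the libraries left out), for Ccn2 without WT replicate 1 (-0.17 to 0.32) and for Tnc without WT replicate 3 (-0.041 to 0.34). The cause of these reversals was not tested. Postn ran from -0.73 to -0.40 over the libraries left out and from -0.54 to -0.46 under the other settings, with adjusted p from 0.487 to 1.00. The unadjusted p of Spp1, 0.0717 in edgeR with TMM, was 0.0394 by library size, 0.0402 with no filter, 0.0398 in DESeq2, 0.0445 with the covariate and 0.0350 without KO replicate 1, and that of Thbs2 was 0.0111 without WT replicate 2. Spp1 ran from 0.24 to 0.51 and Fn1 from -0.50 to -0.14 over the libraries left out. With the replicate block edgeR called 0 genes, with Postn at -0.50 (adjusted p = 0.964), and the block changed no call. The number of members without overlap was 0 under all 3 other scalings. The ratio of Postn to Col1a1 ranged over -0.93 to -0.56 and that to Pdgfrb over -0.84 to -0.42 with a library left out, and with Lrat, Reln, Lhx2 or Ngfr in place of Pdgfrb it was -0.085, -0.17, -0.21 and -0.21, alternatives chosen after seeing the data (the cause was not tested). In simulated counts edgeR found 16.6% of 1.5-fold changes, which limits what 3 libraries per genotype can show.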

Other observations

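The coefficient of variation was smaller in KO than in WT libraries for 7 of the 9 members, and also for 60.7% of the 9741 genes with a mean CPM of at least 10, so the count is no result about the members. It was 5.57% in KO and 24.9% in WT libraries for Postn. For Tnc it was 3.61% in KO and 26.7% in WT libraries, for Ccn1 1.25% in KO and 20.7% in WT libraries, and for Ccn2 8.98% in KO and 34.0% in WT libraries. Counting error alone gives 4.22% in KO libraries for Postn, 3.55% for Tnc, 4.49% for Ccn1 and 2.40% for Ccn2, so the spread between KO libraries was close to counting error for Tnc and below it for Ccn1. These genes were picked after their values were seen, and no test was run. Of the 9741 genes, 7.99% had a KO spread below 0.25 times the WT spread, among them Postn, Tnc and Ccn1 but not Ccn2. For Thbs1 (10.4% in KO and 10.0% in WT libraries) and Spp1 (18.6% in KO and 16.0% in WT libraries) the order was the other way.

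Profiles across the 6 libraries were compared by the root mean square difference of centred log2 CPM, over 13171 other genes with a mean CPM of at least 1. Nearest to Postn were Fam84a, Cdc25c and Smim6 (differences of 0.124 to 0.126), which is wide beside the distance of Sparc to Ppic (0.032) or of Thbs2 to Etl4 (0.025). Nearest to Fn1 were Dap, Litaf and Bsg (0.052 to 0.068), and Dll1 was among the 3 nearest to both Tnc (0.037) and Ccn1 (0.057). No other member was among the 3 nearest genes of any member. With 6 libraries, close profiles are common among so many genes, and these are given as a description.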
